A study of Mus musculus with 6 samples.

Results

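Trim28-deficient KSL cells of adult bone marrow were compared with Trim28-deficient KSL cells of fetal liver. KSL cells, sorted as c-Kit+ Sca1+ Lineage-, are immature blood cells among which the hematopoietic stem cells are found. Of the 6 arrays in the series, the 3 hybridised with knockout RNA were chosen by their labels: 2 from adult marrow (BM_KO, replicates 1 and 2) and 1 from fetal liver (FL_KO). All 3 come from C57BL6 mice in which both alleles of Tif1b, the older name of Trim28, are floxed. The marrow mice carry CreERT, a Cre recombinase switched on by an estrogen-receptor ligand, whose promoter and dosing are not given in the sources used here. The fetal mice carry Tie2-Cre, which is active in endothelial and blood cells from early development. The matching wild-type arrays carry the same Cre with Tif1b w/w, 2 from marrow and 1 from fetal liver. No fetal stage or adult age is given in the sources used here. The labels do not say whether the 2 marrow samples are from different mice. Genes of the sex chromosomes went opposite ways on them, as given below, so their spread is not technical alone. Tissue, age, Cre line and slide cannot be told apart, since each knockout array lay on its own slide, beside the wild-type array of the same tissue and number. The genotype label of marrow replicate 2 reads Tif2b f/f, and a description line of marrow replicate 1 names Hp1gKD c-Kit+ Lineage- cells, against its other labels, which give knockout KSL.

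Trim28 encodes a corepressor that KRAB zinc finger proteins bring to DNA, where it recruits histone methyltransferase and HP1 and keeps retroviral elements and some genes silent. Fetal liver stem cells divide often and run a program that includes Lin28b, an RNA-binding protein that blocks let-7 maturation, and its downstream partners Hmga2 and the Igf2bp genes. Adult marrow stem cells are mostly quiescent and share part of their expression profile with megakaryocytes. The comparison sets the knockout KSL cells of the 2 tissues against each other.

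Levels below are log2 signals minus the 75th percentile of the array, so 0 is a bright probe, and levels of different genes are not set against each other. A probe counts as measured where Agilent's software flags it as well above background. This held for 24585 of 55681 probes on FL_KO, 25811 on BM_KO replicate 1 and 31273 on BM_KO replicate 2. Their 75th percentile signals were 211, 325 and 743, so the fetal liver array was the dimmest. A total of 13023 genes were measured on both BM_KO arrays or on FL_KO and were tested. Across them the BM_KO arrays correlated at r = 0.975 with each other and at 0.905 and 0.881 with FL_KO, as a description over genes, which are not independent. The BM_KO arrays lay at least 2-fold apart for 1239 genes (9.5%). The widest gaps between them over the genes tested were those of Xist, Eif2s3y, Irf4, Hspa1a and Cyp26b1. Xist, transcribed from the inactive X chromosome, was at 1.33 on BM_KO replicate 1, -6.77 on replicate 2 and 0.33 on FL_KO. The Y-linked Eif2s3y was at -6.11, 2.02 and -1.60 in the same order. The marrow arrays thus went opposite ways for these genes of the sex chromosomes, and FL_KO was above background for both. The 2 marrow samples are therefore not the same RNA, and the spread between them includes this difference.

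The knockout arrays matched their genotype label. Trim28 was at 1.28 and 0.75 on the BM_KO arrays and at 1.68 on FL_KO, against 5.97 on the fetal liver wild-type array and 5.55 on marrow wild-type replicate 2. For the wild-type array labelled marrow replicate 1, Trim28 read 5.19 in the authors' deposited table but 2.45 in the scanner file, which do not match each other. Marrow minus fetal liver, the residual Trim28 signal differed by -0.66 ± 0.52 (SE, limma adjusted p = 0.47, n = 2 and 1), which is within the spread. Kit, the stem cell factor receptor used in the sort, was at 4.31 and 4.17 in marrow and 4.30 in fetal liver. Ly6a, which encodes the other positive sort marker Sca1, was at 3.60 and 6.04 in marrow and 0.77 in fetal liver, 16.5-fold higher in marrow (limma adjusted p = 1.6e-06). The wild-type difference of Ly6a was 3.75 on the log2 scale, beside 4.05 ± 0.61 (SE) in the knockout cells.

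Of the 13023 genes, 936 (7.19%) passed limma's test at an adjusted p under 0.05 with the higher level in marrow and 1265 (9.71%) with the higher level in fetal liver. At the unadjusted p under 0.05 there were 3392. The smallest called difference was 2.72-fold in both directions. The lone FL_KO array was assumed to vary like the BM_KO arrays, and a fit whose spread came from all 6 scanner files called 0 genes higher in marrow (1541 at an unadjusted p under 0.05) and 1 in fetal liver, Hbb-y. Those files include the mismatched one; the same fit on all 6 columns of the authors' deposited table called 633 and 818. Where a BM_KO replicate is left out below, the table was fitted with the other 5 arrays, and the spread came from the wild-type marrow arrays alone. The counts of genes at least 2-fold apart from FL_KO on both BM_KO arrays were 1183 (9.08%) above and 1539 (11.8%) below. The median difference over all genes was -0.25 on the log2 scale and became -0.02 after quantile normalization, so list medians are read against it. For 413 of the genes called higher in marrow and 287 called higher in fetal liver, the other tissue was not well above background, and their fold is only a lower bound, written as at least N-fold. It sets the bright tissue's mean against, per dim array, whichever is larger of that gene's measured value and the faintest value flagged well above background. Hbb-y, Hbb-bh1, Prg3, Ear1, Adgre1, Stab1, Igf2, Dnmt3l and Il7r, named below, were well above background on 1 of the 2 BM_KO arrays, so their marrow mean is uncertain. Genes with a bound enter the test through the tissue where they are high. The main lists are therefore also counted over the 11593 genes measured on all 3 arrays, of which 444 (3.83%) were called higher in marrow and 620 (5.35%) higher in fetal liver. In bulk RNA of sorted cells, more cells of a type and more RNA per cell cannot be told apart.

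**Figure D1:**
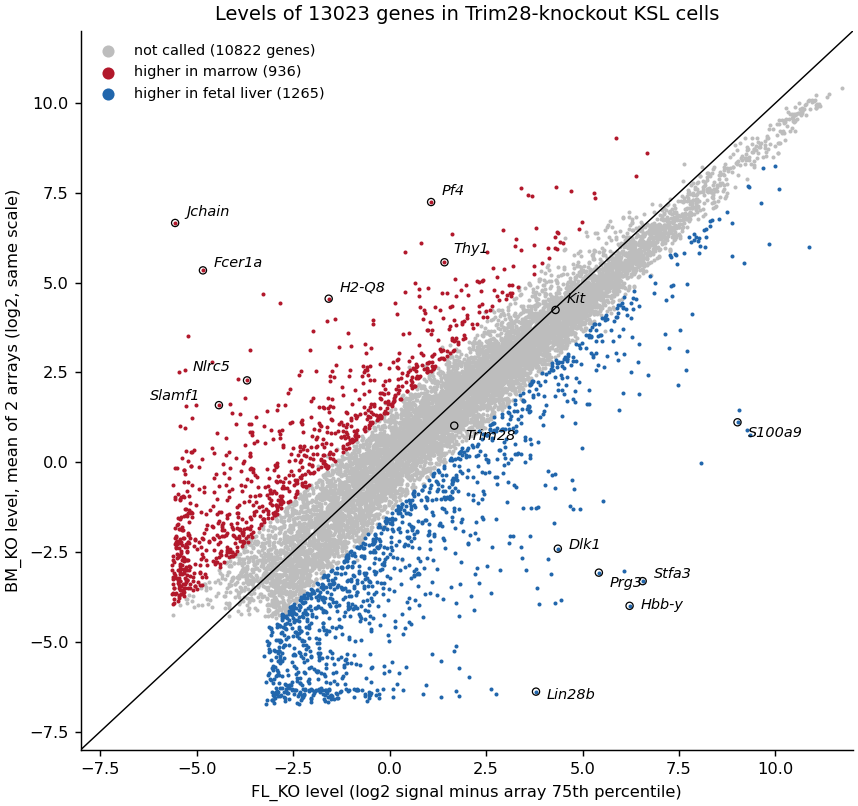
Level of each of the 13023 tested genes on FL_KO (x axis) against the mean of the 2 BM_KO arrays (y axis), both as log2 signal minus the array's 75th percentile, coloured by limma's call. Most genes lie along the line of equality, with 936 called genes above it and 1265 below; Trim28 and Kit lie in the uncalled band, while Jchain and Fcer1a stand far above it and Lin28b and Hbb-y far below.

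Genes of the fetal program were higher in knockout fetal liver cells. Of 21 fetal-program genes tested, out of 24 listed, 12 were called higher in fetal liver, 0 in marrow and 9 in neither, with a median difference of -2.41. Lin28b was at -5.97 and -6.81 in marrow, not well above background, and at 3.79 in fetal liver, at least 308-fold higher there (limma adjusted p = 1.8e-18). Igf2bp1 and Igf2bp3, which bind and stabilise messenger RNAs and rise with Lin28b, were likewise not well above background in marrow and were at least 138-fold and at least 76.7-fold higher in fetal liver. Hmga2, a chromatin protein and let-7 target that promotes fetal stem cell self-renewal, was at -0.97 and -1.60 in marrow and 3.79 in fetal liver, 33.6-fold apart (limma adjusted p = 3.6e-10). Igf2bp2 was at -0.38 and -0.86 against 2.79, and Arid3a, a partner of the fetal B-cell program, at 1.49 and 1.73 against 5.18, 11.9-fold apart. Both marrow arrays lay below the fetal array for each of the genes named so far, but the rule that picked most of them required this. Ezh2, the Polycomb methyltransferase, did not pass the test, at 3.82 and 3.30 against 3.36. Over the 16 of these genes measured on all 3 arrays, 7 were called higher in fetal liver.

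Embryonic and adult globins both separated the tissues, by different amounts on the 2 marrow arrays. All 9 globin genes tested, out of 11 listed, were called higher in fetal liver. Hbb-y, the embryonic beta-like globin, was at -3.89 and -4.11 in marrow and 6.22 in fetal liver, 1192-fold apart (limma adjusted p = 1.4e-18). Hba-x, the embryonic alpha-like globin, was not well above background in marrow and was at least 72.7-fold higher in fetal liver. Hbb-bh1, another embryonic beta-like globin, was at -3.90 and -3.92 against 1.71. The adult Hba-a1 was at 5.80 on BM_KO replicate 1, 1.58 on replicate 2 and 7.53 in fetal liver, and Hba-a2 at 8.21, 3.97 and 9.83. The adult alpha globins thus differed more between the marrow replicates than between replicate 1 and fetal liver. The list's median difference from FL_KO was -1.72 for BM_KO replicate 1 and -5.63 for replicate 2. Without BM_KO replicate 2, 5 of the 9 were called, and with quantile normalization 4. Over the 5 measured on all 3 arrays, 5 were called. The adult globins are near-identical copies, so their probes may share signal. The other erythroid genes did not follow the globins: 6 of 30 were called higher in marrow and 5 in fetal liver. Car2, a carbonic anhydrase, was at 6.49 and 6.46 in marrow against 2.94, while Slc4a1, the red cell anion exchanger, was at -0.45 and -2.89 against 1.85. Gata1 and Klf1, which drive the erythroid program, did not pass.

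**Figure D2:**
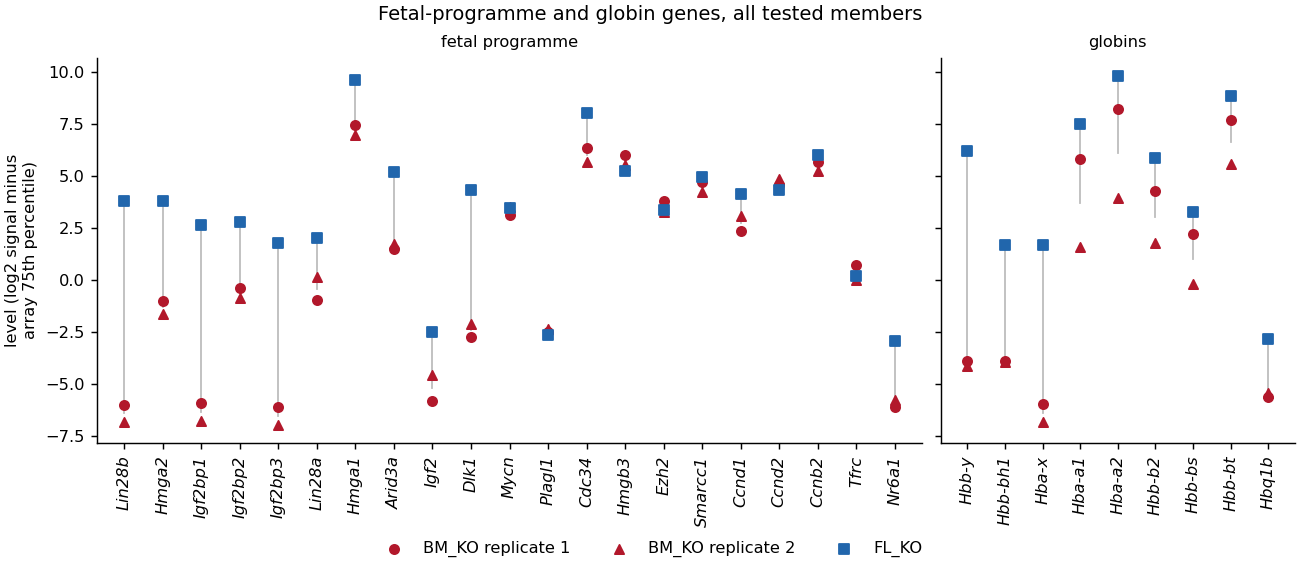
Levels (y axis, log2 signal minus the array's 75th percentile) of all tested fetal-program and globin genes on the 2 BM_KO arrays (red) and FL_KO (blue). Lin28b, Igf2bp1, Igf2bp3, Hbb-y and Hba-x show high fetal and low marrow levels (6.22 against -3.89 and -4.11 for Hbb-y), whereas Hba-a1 reads 5.80 and 1.58 on the 2 marrow arrays.

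Some genes of imprinted loci were called higher in fetal liver, while the list's median lay beside that of all genes. Of 30 tested, out of 44 listed, 10 were called higher in fetal liver and 0 in marrow. The shares over all genes were 9.71% and 7.19%. The list's median was -0.28, beside the -0.25 of all genes. Dlk1, a Notch-family ligand of fetal progenitors, was at -2.73 and -2.09 in marrow and 4.36 in fetal liver, 109-fold apart (limma adjusted p = 1.7e-13). Mest, an imprinted hydrolase, and Meg3, the noncoding RNA of the Dlk1 locus, were not well above background in marrow and were at least 12.2-fold and at least 3.50-fold higher in fetal liver. Igf2, the fetal growth factor, was at -5.80 and -4.54 against -2.47. With quantile normalization 6 of the 30 were called. Over the 23 measured on all 3 arrays 4 were, where 5.35% of all genes were called higher in fetal liver. Among Hox genes, Hoxb2, a homeobox factor, was at 1.21 and 1.05 in marrow and -2.29 in fetal liver, and Hoxb3 and Hoxb5 were at least 2.05-fold and at least 3.81-fold higher in marrow. Hoxc13 was at least 18.4-fold higher in fetal liver. In all, 5 of 15 Hox genes were called higher in marrow and 2 in fetal liver, but among the 7 measured on all 3 arrays only 1 was called.

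Genes associated with hematopoietic stem cells tended to be higher in knockout marrow. Of 43 tested, out of 46 listed, 17 were called higher in marrow, 3 in fetal liver and 23 in neither. The median difference was 0.91, beside 0.32 in wild-type cells in the authors' deposited table. Slamf1, the CD150 antigen of stem cells, was at 1.64 and 1.53 in marrow and -4.42 in fetal liver, where it was not well above background, at least 29.7-fold higher in marrow (limma adjusted p = 3.1e-12). Thy1, a surface antigen of adult stem cells and T cells, was at 5.80 and 5.33 against 1.42, 17.7-fold apart. Pdzk1ip1, a membrane protein gene of adult stem cells, was at 4.85 and 5.15 against 0.66, 20.3-fold apart. Mecom, a transcription factor that stem cells depend on, was at -2.54 and -2.18 against -5.24, at least 1.92-fold higher, and Tek, the angiopoietin receptor, was at least 5.04-fold higher in marrow. The marrow arrays lay on the same side of the fetal array for each of these, which the rule that picked most of them required. The core regulators Gata2, Tal1, Runx1 and Lmo2, picked after their values were seen, had differences of 0.91, 0.94, 0.19 and 0.79 and did not pass. Over the 38 genes measured on all 3 arrays, 11 were called higher in marrow and 2 in fetal liver. The count of 17 was 10 without BM_KO replicate 2 and 11 with quantile normalization. A shorter list of adult stem cell and quiescence genes shares members with this one and with the megakaryocyte list; 12 of its 25 tested members were called higher in marrow and 3 in fetal liver, with a median of 1.70, or 0.83 without BM_KO replicate 1. Over the 22 measured on all 3 arrays, 11 and 2 were called. Nupr1, a stress-response cofactor, was at 4.49 and 4.13 against 0.78, while the metallothionein Mt1 was at 5.65 and 5.46 against 9.18. Without BM_KO replicate 2 the counts were 7 and 5.

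Genes of the megakaryocyte lineage were higher in knockout marrow. Of 27 tested, out of 31 listed, 15 were called higher in marrow, 1 in fetal liver and 11 in neither, with a median difference of 1.79. Pf4, a platelet chemokine, was at 7.24 and 7.25 in marrow and 1.08 in fetal liver, 72.0-fold apart (limma adjusted p = 1.6e-12). Gp5 and Gp1ba, subunits of the platelet receptor for von Willebrand factor, were at 2.57 and 2.50 against -2.31 and at 1.30 and 1.90 against -2.89. Vwf itself was at 4.22 and 5.50 against 0.99, Itga2b, the integrin CD41, at 3.79 and 3.58 against 0.99, and Selp, platelet P-selectin, at 2.16 and 1.89 against -2.57. Thbs1, which encodes the platelet alpha-granule protein thrombospondin-1, went the other way, at -2.90 and -2.43 in marrow and 3.44 in fetal liver. The factors Gata1, Nfe2 and Fli1 did not pass, the last 2 being named after their values were seen. The count was 13 of 24 over genes measured on all 3 arrays. Beside the wild-type tissue difference, the list's median of 1.79 stood against 0.79, and the test of the difference between the genotypes is given further on.

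Interferon-stimulated genes and MHC genes were higher in knockout marrow. Of 41 interferon-stimulated genes tested, out of 44 listed, 26 were called higher in marrow, 0 in fetal liver and 15 in neither, with a median difference of 1.62. Ifi44, an interferon-induced antiviral protein, was at 1.79 and 2.84 in marrow and not well above background in fetal liver, at least 49.1-fold higher in marrow. Oas3, a sensor of double-stranded RNA, was at least 12.98-fold higher and Ifit1, which binds viral RNA, at least 7.22-fold. Gbp2, an interferon-induced GTPase, was at 2.39 and 2.69 against -1.48, and Irf7, the regulator that amplifies interferon production, at 0.48 and 1.34 against -1.84. Over the 35 measured on all 3 arrays 16 were called, and without BM_KO replicate 1 or 2 there were 17 and 16, with 1 gene called higher in fetal liver in the former. Of 23 genes of MHC presentation tested, out of 25 listed, 16 were called higher in marrow and 0 in fetal liver, with a median of 2.43, and 14 of the 21 measured on all 3 arrays. H2-K1, a classical class I heavy chain, was at 9.13 and 8.90 in marrow and 5.87 in fetal liver, 8.85-fold apart (limma adjusted p = 7.7e-06). Tap1, the peptide transporter, was at 2.66 and 2.70 against -0.68. Nlrc5, the transactivator of class I genes, was not well above background in fetal liver and was at least 47.9-fold higher in marrow. H2-Aa, a class II chain, was at least 8.58-fold higher in marrow. Class I genes are close copies of each other, so their probes may share signal. Cells of the wild type showed the same lists at medians of 2.10 and 2.49 in the authors' deposited table.

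**Figure D3:**
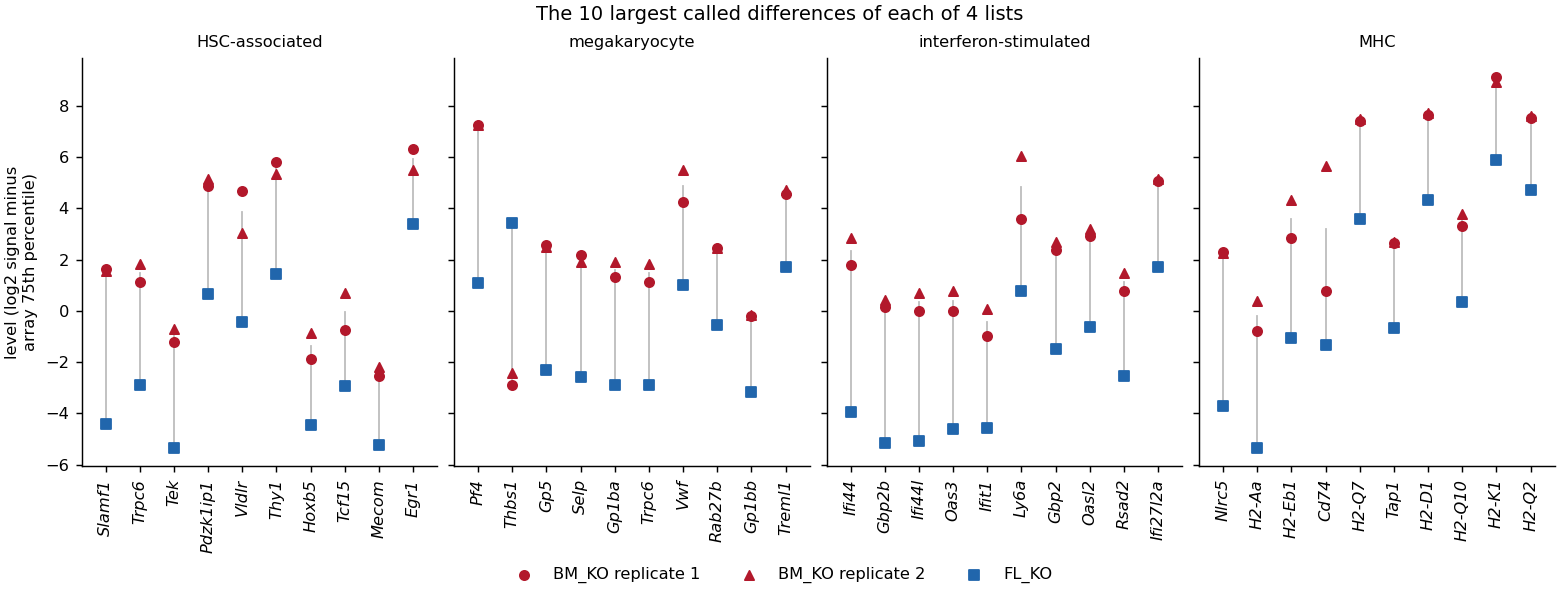
Levels (y axis, log2 signal minus the array's 75th percentile) of the 10 genes with the largest called difference in each of 4 lists, on the 2 BM_KO arrays (red) and FL_KO (blue). The red points lie above the blue ones for each gene shown except Thbs1, and for Nlrc5 and Pf4 the 2 marrow arrays nearly coincide.

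Promoter sequences are shown for interferon-stimulated genes called higher in marrow, with the letters of the motif searched in them. They have the largest differences among called members whose window holds the motif, so each window shown had to hold it. The sequences are the RefSeq promoter windows of build GRCm38.p6, 250 bases before to 50 after a start site, and 10429 of the 13023 tested genes had one. The core GAAANNGAAA, to which interferon-activated factors bind, was searched on both strands and was found in 3.44% of all 32851 windows and 3.85% of those of tested genes. It occurred in 13 of the 19 matched interferon-stimulated genes called higher in marrow and also in 5 of the 11 matched ones that were not called. Among matched MHC genes called higher in marrow, 2 of 13 held it. Capitals mark the core, or its reverse complement where it lies on the opposite strand. The window of Oas3 is chr5:120777610-120777909 on the minus strand, that of Ifit1 is chr19:34640639-34640938 on the plus strand and that of Gbp2b is chr3:142594597-142594896 on the plus strand.
Oas3: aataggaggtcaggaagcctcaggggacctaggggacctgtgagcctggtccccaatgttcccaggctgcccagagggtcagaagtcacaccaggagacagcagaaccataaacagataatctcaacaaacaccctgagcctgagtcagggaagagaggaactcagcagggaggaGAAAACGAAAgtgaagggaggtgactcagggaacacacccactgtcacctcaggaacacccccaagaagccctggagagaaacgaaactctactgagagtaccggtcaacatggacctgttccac
Ifit1: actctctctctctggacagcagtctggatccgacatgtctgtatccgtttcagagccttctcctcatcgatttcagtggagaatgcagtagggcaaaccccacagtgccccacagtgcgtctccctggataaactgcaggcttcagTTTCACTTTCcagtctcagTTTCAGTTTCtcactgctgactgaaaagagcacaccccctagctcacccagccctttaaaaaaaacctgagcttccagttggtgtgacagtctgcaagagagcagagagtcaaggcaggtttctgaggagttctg
Gbp2b: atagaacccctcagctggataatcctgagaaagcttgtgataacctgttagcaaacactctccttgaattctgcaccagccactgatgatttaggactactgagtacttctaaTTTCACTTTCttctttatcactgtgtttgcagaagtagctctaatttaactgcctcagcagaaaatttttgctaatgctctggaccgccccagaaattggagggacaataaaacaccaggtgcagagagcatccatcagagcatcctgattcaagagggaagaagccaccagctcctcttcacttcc
The match begins 75 bases before the start site in Oas3, 104 in Ifit1, which holds 2 of them, and 137 in Gbp2b. These are matches of letters, and binding was not measured. A CCAAT box on either strand occurred in 37.4% of all windows, 43.1% of those of tested genes, in 12 of the 13 matched MHC genes called higher in marrow and in 3 of the 5 not called. It also occurred in 6 of the 7 matched globin genes. The GATA core AGATAA, the site of Gata1, occurred in 11.2% of all windows, in 1 of 7 matched globins, in 2 of 13 matched megakaryocyte genes called higher in marrow and in 2 of 7 not called.

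Neutrophil and eosinophil granule genes were higher in knockout fetal liver, by some of the widest gaps in the comparison. Of 32 neutrophil genes tested, out of 37 listed, 22 were called higher in fetal liver, 1 in marrow and 9 in neither, with a median difference of -2.98. S100a9, a subunit of calprotectin, was at 0.93 and 1.29 in marrow and 9.02 in fetal liver, 240-fold apart (limma adjusted p = 1.1e-15). S100a8, its partner, was at 1.17 and 1.73 against 9.07. Mpo, the peroxidase of primary granules, was at 7.99 on BM_KO replicate 1, 4.0004 on replicate 2 and 10.88 in fetal liver. Elane, the neutrophil elastase, was at 2.00 and 1.41 against 4.59. Stfa3, Stfa1 and Stfa2l1, stefin-type protease inhibitors of neutrophils, were between 4.45 and 9.27 in fetal liver and between -4.38 and 1.71 in marrow, but they are close copies whose probes may share signal. Over the 30 genes measured on all 3 arrays 20 were called higher in fetal liver, and with quantile normalization 14 of the 32.

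Of 13 eosinophil genes, 11 were called higher in fetal liver and 0 in marrow, with a median of -5.85. Of the 8 measured on all 3 arrays, 6 were called. In wild-type cells the list's median was -5.21 in the authors' deposited table. The neutrophil list had -0.74 there beside -2.98 in knockout cells, and the monocyte and dendritic list 0.15 beside -1.67. These differences between list medians were not tested. Prg3, a granule protein related to major basic protein, was at -3.71 and -2.44 in marrow and 5.42 in fetal liver, 362-fold apart. Prg2, the major basic protein, was at 0.99 and 4.14 against 7.69. Epx, the eosinophil peroxidase, was at -3.72 and -2.30 against 2.86. The eosinophil-associated ribonucleases Ear1, Ear2 and Ear6 are paralogs whose probes may share signal, and each was higher in fetal liver. Monocyte and dendritic genes were divided: of 35 tested, out of 45 listed, 19 were called higher in fetal liver and 8 in marrow, and of the 26 measured on all 3 arrays 14 and 5. Irf8, which directs monocyte and dendritic fate, was at 1.22 and 0.87 in marrow against 3.96. Csf1r, the receptor for macrophage colony-stimulating factor, was at 2.18 and 1.69 against 6.04. Adgre1, the F4/80 antigen, was at -4.31 and -3.92 against 2.19. The marrow-high members included the class II genes H2-Aa and H2-Eb1, which the MHC list also holds.

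Mast cell genes split by gene rather than by tissue. Of 21 mast and basophil genes tested, out of 25 listed, 7 were called higher in marrow and 5 in fetal liver, and of the 17 measured on all 3 arrays 4 each way. Fcer1a, the alpha chain of the IgE receptor, was at 5.86 and 4.83 in marrow and -4.84 in fetal liver, at least 401-fold higher in marrow (limma adjusted p = 1.9e-18). The chymases Mcpt4 and Cma1 were at least 58.2-fold and at least 29.6-fold higher in marrow. Cpa3, a mast cell carboxypeptidase, was at 5.27 and 5.05 against 2.78. Hdc, which makes histamine, was at 4.15 and 2.18 in marrow and 7.25 in fetal liver.

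Lymphoid genes held single wide gaps, and the B-lymphoid count depended on the scaling. Of 18 B-lymphoid genes tested, out of 28 listed, 7 were called higher in marrow and 2 in fetal liver. The list median was 0.44, beside -0.25 over all genes. Among the 11 measured on all 3 arrays 2 and 1 were called, and with quantile normalization 2 and 1 of the 18. Jchain, the joining chain of secreted antibodies, was at 4.96 and 8.37 in marrow and -5.56 in fetal liver, at least 999.8-fold higher in marrow. Dntt, the terminal transferase that diversifies receptor joints in adult but not fetal lymphopoiesis, was at 5.54 and 3.83 against -3.28, at least 249.8-fold higher in marrow. Pou2af1 and Ly6d, genes of B-lineage cells, were at -0.96 and 0.15 on BM_KO replicate 1 but at 4.52 and 5.45 on replicate 2, so the marrow arrays were far apart for both. Rag2, a subunit of the recombinase, was at -3.68 and -4.33 in marrow and -0.91 in fetal liver. Il7r, the interleukin-7 receptor, was at -5.20 and -2.92 against -0.85. Pax5, a defining B-cell factor, was not well above background on any of the 3 arrays. Gata3, a factor of T cells and stem cells, was at 1.01 and 1.99 in marrow and -1.61 in fetal liver.

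**Figure D4:**
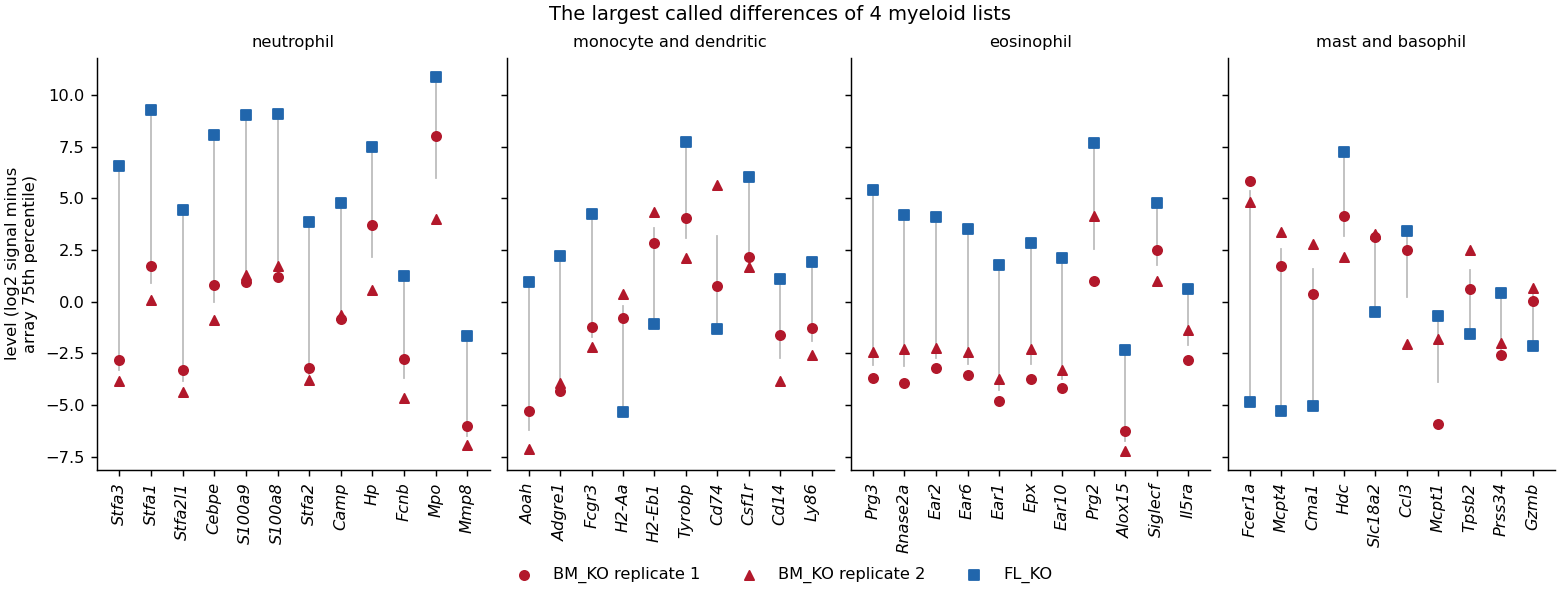
Levels (y axis, log2 signal minus the array's 75th percentile) of the genes with the largest called differences in 4 myeloid lists, on the 2 BM_KO arrays (red) and FL_KO (blue). All 12 neutrophil and all 11 eosinophil genes shown lie higher on FL_KO, while Fcer1a, Mcpt4 and Cma1 lie higher on the marrow arrays.

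Marker lists of other cell types were summed as linear signals over all their genes on the arrays, filtered or not. Such a sum weighs the brightest probes of a list most. In the neutrophil list these included Mpo, Stfa1, S100a8 and S100a9, at 10.88, 9.27, 9.07 and 9.02 on FL_KO. The neutrophil list summed to 875 and 339 times the 75th percentile on the BM_KO arrays and to 5200 on FL_KO, with 31, 31 and 32 of its 35 genes above background. The eosinophil list summed, on the log2 scale, to 5.64 and 5.58 against 8.53. The megakaryocyte list summed to 569 and 573 against 225, and the list of stem cell genes to 961 and 716 against 703. The neutrophil and eosinophil sums were thus higher on FL_KO, and the megakaryocyte sum lower. Their part in the differences of other genes was not tested. Hepatocyte genes had 8 and 12 of 33 above background on the BM_KO arrays and 15 on FL_KO, with nearly equal sums of 85.7, 78.1 and 81.3. Albumin (Alb) was at -2.19 on FL_KO and not well above background in marrow. Of 15 hepatocyte genes tested, out of 35 listed, 9 were called higher in fetal liver, but over the 7 measured on all 3 arrays 1 was called and the median was 0.11. Endothelial genes summed to 218 and 187 against 319, while Cdh5, a defining endothelial cadherin, was not well above background on any of the 3 arrays. Stab1, a scavenger receptor of sinusoidal endothelium, was at -4.13 and -2.61 in marrow and 2.31 in fetal liver. Stromal sums were 165 and 131 against 97.8, and epithelial sums 83.2 and 68.2 against 136.

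A part of the genes of glycolysis and the response to low oxygen was higher in knockout fetal liver. Of 38 tested, out of 39 listed, 15 were called higher in fetal liver, 1 in marrow and 22 in neither, with a median difference of -1.26. Slc16a3, the lactate exporter, was at 2.76 and 2.11 in marrow and 6.69 in fetal liver, 19.13-fold apart (limma adjusted p = 2.2e-08). Slc2a1, the glucose transporter, was at 2.12 and 2.34 against 4.90, and Hk2, the inducible hexokinase, at 1.46 and 1.04 against 3.90. Bnip3, a mitophagy receptor induced by low oxygen, was at 3.75 and 3.22 against 6.29, and Ankrd37, another target of the hypoxia factor, at -0.30 and -0.51 against 2.73. Ndrg1, a stress-response gene, was the member called higher in marrow, at 4.37 and 4.26 against 1.57. Over the 36 genes measured on all 3 arrays 14 were called higher in fetal liver. The count fell from 15 to 9 with quantile normalization and to 7 with no filter on dim probes. The wild-type median of the list was -0.38.

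The core ACGTG, to which hypoxia-inducible factor binds, occurred on either strand in 19.6% of all promoter windows and 28.7% of those of tested genes. It was found in 12 of the 15 matched glycolysis and hypoxia genes called higher in fetal liver, and in 13 of the 19 matched ones that were not called. Windows of Slc16a3 (chr11:120948817-120949116, plus strand) and Bnip3 (chr7:138909457-138909756, minus strand) in build GRCm38.p6 are shown as examples of the group with a core near the start site, chosen after their values were seen. Capitals mark the core on either strand.
Slc16a3: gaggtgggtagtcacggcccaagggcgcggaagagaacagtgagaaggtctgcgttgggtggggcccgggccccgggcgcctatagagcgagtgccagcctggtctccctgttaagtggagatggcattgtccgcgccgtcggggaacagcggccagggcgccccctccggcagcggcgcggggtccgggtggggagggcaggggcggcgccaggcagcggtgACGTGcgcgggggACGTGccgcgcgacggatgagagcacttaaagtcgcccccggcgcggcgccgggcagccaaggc
Bnip3: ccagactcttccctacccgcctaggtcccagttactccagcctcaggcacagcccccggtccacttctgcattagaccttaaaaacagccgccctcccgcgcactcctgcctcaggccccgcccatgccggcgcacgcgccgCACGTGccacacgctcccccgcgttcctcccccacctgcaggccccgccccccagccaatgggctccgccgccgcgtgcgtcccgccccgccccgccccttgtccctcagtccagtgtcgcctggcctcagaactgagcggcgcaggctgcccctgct
In Bnip3 the cores of both strands overlap in 1 run that begins 108 bases before the start site, and in Slc16a3 2 runs begin within 27 bases of it. A match of letters shows no binding.

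Few genes of the dividing cell were called, but no difference under 2.72-fold was called for any gene. Of 40 S-phase genes, 3 were called higher in fetal liver and 37 did not pass, and of 43 G2 and mitosis genes 1 was called each way. Over all genes, 9.71% were called higher in fetal liver and 7.19% in marrow. The S-phase median was -0.06 for BM_KO replicate 1 and -0.74 for replicate 2. That of G2 and mitosis was 0.05 and -0.64. Mki67 and Top2a, markers of dividing cells, and Mcm2 and Mcm3, subunits of the replicative helicase, did not pass. Ccne1, the G1 cyclin, was at 3.29 and 2.57 in marrow and 5.27 in fetal liver (limma adjusted p = 0.00079). No member passed among 40 ribosome biogenesis genes, 43 genes of oxidative phosphorylation or 21 Polycomb genes. Their medians were -0.49, -0.68 and -0.11 beside -0.25 for all genes. Only 2 of the 43 oxidative phosphorylation genes had a difference above 0, against 5017 of all 13023. This depended on the scaling: with quantile normalization the list's median was -0.06, beside -0.02 for all genes. Without it, the list's median was -0.33 for BM_KO replicate 1 and -0.94 for replicate 2, beside -0.13 and -0.34 for all genes. Cell cycle inhibitors were an exception in single genes. Cdkn2c, the inhibitor p18, was at 2.42 and 2.09 in marrow and -1.55 in fetal liver. Cdkn2a, which encodes p16 and p19, was at -1.05 and -1.06 in marrow and -5.43 in fetal liver, at least 4.76-fold higher in marrow. Cdkn1a, Cdkn1b and Cdkn1c did not pass.

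Most partners of Trim28 and enzymes of DNA methylation did not pass the test, and neither did 10822 of all 13023 genes. The shares over all genes were 7.19% called higher in marrow and 9.71% in fetal liver. For genes measured on all 3 arrays they were 3.83% and 5.35%. Of 23 genes of Trim28 partners, 2 were called, both higher in marrow: Chd3, a subunit of the NuRD complex that Trim28 binds, at 4.997 and 5.13 against 2.41, and Atrx, a chromatin remodeller at repeats, at 0.33 and 0.24 against -1.54. Of 18 DNA methylation genes, 3 were called higher in fetal liver, but 1 of the 17 measured on all 3 arrays and 1 with quantile normalization. Dnmt3b, a de novo methyltransferase, was at 4.79 and 4.65 in marrow and 6.84 in fetal liver. Dnmt3l, its cofactor, was at -4.52 and -3.93 against -0.79, and Uhrf1, which guides maintenance methylation, at 6.21 and 5.35 against 7.28. Dnmt1 and Dnmt3a did not pass. Among sensors of retroviral RNA and DNA, 4 of 16 were called higher in marrow and 0 in fetal liver, and all 4 (Ddx58, Ifih1, Zbp1 and Irf7) are also interferon-stimulated.

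**Figure D5:**
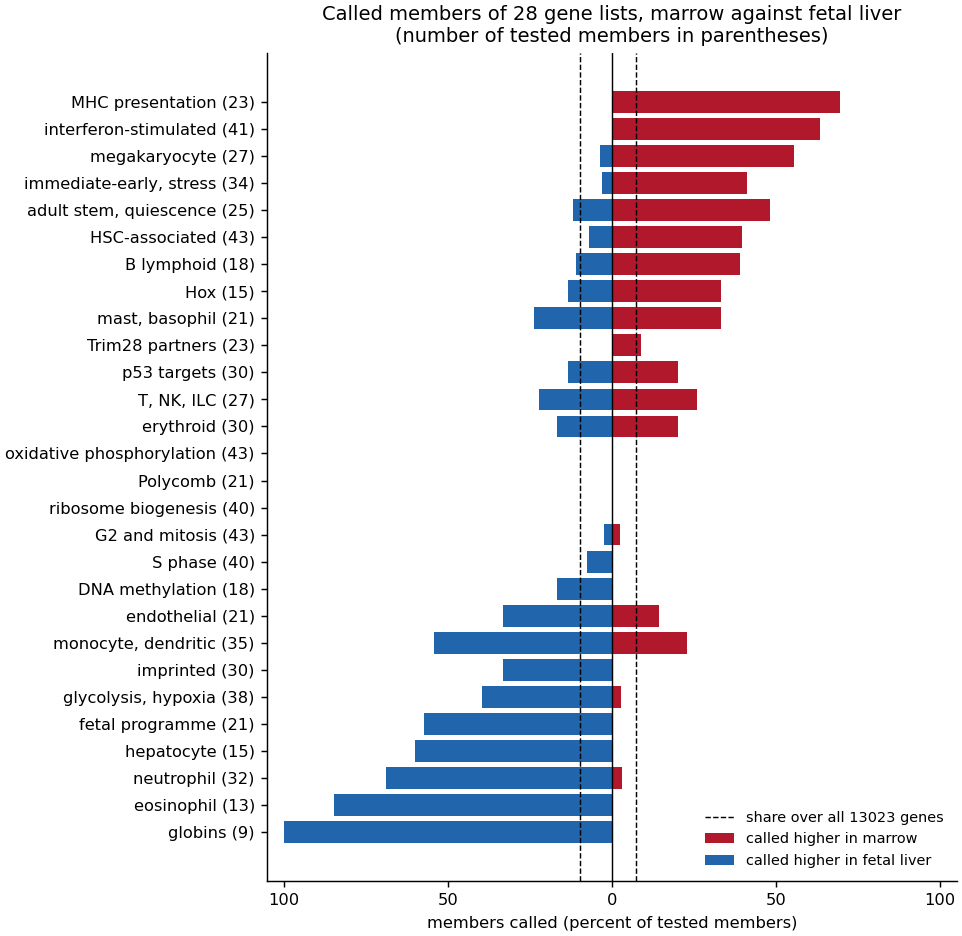
Percent of tested members called higher in marrow (red, to the right) or in fetal liver (blue, to the left) for 28 gene lists, with dashed lines at the shares over all 13023 genes, 7.19% and 9.71%. MHC presentation and interferon-stimulated genes extend farthest right, globins and eosinophil genes farthest left, and oxidative phosphorylation, ribosome biogenesis and Polycomb genes have no bar.

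Immediate-early and stress genes depended on the marrow array. Of 34 tested, out of 37 listed, 14 were called higher in marrow and 1 in fetal liver, with a median difference of 2.22 for BM_KO replicate 1 and 0.43 for replicate 2. Nr4a1, an orphan receptor induced within minutes of stimulation, was at 6.11 and 5.59 in marrow and 0.40 in fetal liver, and Socs3, the cytokine signal inhibitor, at 4.86 and 4.36 against 0.76. The chaperone Hspa1a, induced by heat, was at 3.65 on BM_KO replicate 1, -3.40 on replicate 2 and 3.64 on FL_KO. Without BM_KO replicate 1, 3 of the 34 were called higher in marrow, and without replicate 2, 7.

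The same tissue contrast in wild-type cells comes from other arrays, set against the fetal wild-type array. The sources are marrow wild-type replicate 2 and, from the authors' deposited table, both marrow replicates. They share replicate 2 and the fetal array, so they are not independent of each other. The scanner file labelled marrow wild-type replicate 1 agreed within 1% with its table column for 1.404% of the probes compared, against 100% on the other arrays, so the table was used. Over the 13023 genes the knockout and wild-type differences correlated at r = 0.782, as a description across genes, and the genotypes share slides. Of the 936 genes called higher in knockout marrow, 639 (68.3%) were at least 2-fold higher in wild-type marrow by both sources, against 1042 of all 13023, and 18 at least 2-fold lower. Of the 1265 called higher in knockout fetal liver, 873 (69.0%) were at least 2-fold higher in wild-type fetal liver, against 1563 of all 13023, and 25 at least 2-fold lower. Dlk1 differed by -6.21 in wild-type cells. Lin28b and Hbb-y were at 4.07 and 5.04 in wild-type fetal liver and not well above background on wild-type marrow replicate 2, while Nlrc5 was at 2.75 there and not well above background in wild-type fetal liver.

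The test of the knockout tissue difference against the wild-type one passed for 1 gene (0.00768%), and 821 genes had an unadjusted p under 0.05. With the slide as a replicate block it passed for 268 genes (2.06%), 73 above 0 and 195 below. The gene that passed without the block was Ifi202b, an interferon-inducible DNA-binding protein. Ifi202b was at -1.75 and -1.36 in knockout marrow and -5.47 in knockout fetal liver, but at -7.21 on wild-type marrow replicate 2 and 0.91 in wild-type fetal liver. Knockout fetal liver and wild-type marrow replicate 2 were not well above background for Ifi202b, so the fitted excess of 11.67 over the wild-type difference (limma adjusted p = 0.036; with the block 0.018) has no exact size. With those arrays at their faintest measured level, it was at least 7.71 on the log2 scale. The mismatched scanner file labelled wild-type marrow replicate 1 read 3.73 for Ifi202b, against -6.51 in the authors' deposited table.

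With the block, genes of several groups passed the genotype test. The spread in that fit came from the marrow slides alone. Most of the genes below were named for wide knockout differences, which enter the tested contrast. Gbp2b and Ifi44l, both interferon-stimulated, were at least 12.02-fold and at least 12.5-fold higher in knockout marrow than in knockout fetal liver, and neither was well above background in wild-type fetal liver or wild-type marrow replicate 2, so no wild-type difference is given (limma adjusted p with the block 0.022 and 0.024). Slamf1 differed by 2.09 in wild-type cells (0.032 with the block), Pf4 by 3.60 against 6.17 ± 0.52 (SE) in knockout cells (0.044) and Fcer1a by 5.19 (0.019). Among fetal-high genes, S100a9 differed by -5.14 in wild-type and -7.91 ± 0.52 (SE) in knockout cells (0.038), Csf1r by -1.33 and -4.10 ± 0.52 (SE) (0.036), and Irf8 by 0.53 and -2.92 ± 0.52 (SE) (0.041). Bnip3 differed by -0.76 and -2.81 ± 0.52 (SE) (0.047). The fetal program and MHC members named above were not among them, with block p-values of at least 0.089. Without the block, none of the genes in this paragraph passed.

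A pair of lists had been drawn up from the marrow knockout against marrow wild-type comparison, which shares the BM_KO arrays, so their counts are not independent evidence. Of 19 genes that are raised in knockout marrow and silent in normal stem cells, 9 were called higher in marrow than in knockout fetal liver and 2 in fetal liver, and of the 14 measured on all 3 arrays 5 and 2. Skint3, a gene of epithelial immune-like proteins, was at 1.01 and 1.12 in marrow and not well above background in fetal liver, at least 20.6-fold higher, and Lrrn3, a neuronal membrane protein, was at 3.64 and 2.81 against -1.01. Cyp2b10, a liver cytochrome, was at 2.75 and 2.63 against 0.71. Of 14 genes lowered in knockout marrow, 13 were called higher in knockout fetal liver, among them Celsr3, a cadherin receptor, by at least 23.5-fold and Zfp874a, a zinc finger gene, by at least 6.18-fold.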

How the data were processed

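RNA of sorted KSL cells was hybridised to 1-colour Agilent mouse arrays, 1 array per sample. The scanner files hold the intensity of each spot, deposited by the authors as Agilent Feature Extraction 10.7.1.1 output, the version per the submitters' processing notes; gProcessedSignal is already background-corrected, per the file headers. The authors' deposited value table holds a linear ratio per probe, the signal relative to a constant of its array near the 75th percentile, as a match with the scanner files showed; its scaling is not given in the sources used here.

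From the log2 of gProcessedSignal the 75th percentile of its array was subtracted here. Outlier spots and controls were dropped, as were 7 probes with missing values. Of 55681 probes, 16966 that name a gene were well above background on both BM_KO arrays or on FL_KO, and the brightest probe stood for each of 13023 genes. The contrast BM_KO minus FL_KO was tested with limma 3.58.1 in R 4.3.3 (lmFit and eBayes, 1 residual and 40.66 prior degrees of freedom, Benjamini-Hochberg adjusted p under 0.05). Its difference from the wild-type contrast was tested on log2 of the value table, without and with the slide as a block. Arrays of the same tissue and number share a slide. On the marrow slides, deviations of knockout and wild-type arrays from their group means correlated at 0.590 in the value table and 0.125 in the scanner files. The code was tested on simulated data. Tables and plots were made with Python 3.11.15, pandas 2.3.3 and matplotlib 3.10.9.

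Other background correction, normalization, filters, probe choice and value source were tried, and marrow replicates were left out in turn. Normexp used the median signal with an offset of 50, because the scanner files used here have no mean signal column. Genes were named by rule: the 14 widest called differences each way, the first 2 and the 5 widest called of each of 40 lists. Up to 6 each way that passed the genotype test were added, of which there was 1. With the 5 widest gaps between the marrow replicates, there were 231 genes in all. A called difference counted there only with both marrow arrays on the same side of FL_KO, and its width was the smaller of the 2. The members and lists were chosen with earlier results of these data known, and list counts under each alternative were added after seeing the data. The number of arrays limits the precision.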

Additional observations from a re-analysis of the deposited data

Results flagged for a closer look

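Ifi202b, an interferon-inducible DNA-binding protein gene, had a tissue difference that differed between the genotypes. The fitted knockout difference, marrow minus fetal liver, exceeded the wild-type one by 11.67 on the log2 scale (limma adjusted p = 0.036, or 0.018 with the slide as a block). Knockout fetal liver and wild-type marrow replicate 2 were not well above background for Ifi202b, so the size is a lower bound: at least 7.71 with those arrays at their faintest measured level. Both knockout marrow arrays lay above the knockout fetal array, and both wild-type marrow columns of the authors' deposited table, at -6.51 and -7.21, lay below the wild-type fetal array, at 0.91. The mismatched scanner file labelled wild-type marrow replicate 1 read 3.73.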

How the results depend on the processing

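The counts of called genes depended on the scaling, the filter and the arrays that give the spread. Genes higher in marrow numbered 936, but 614 with quantile normalization, 515 with no filter on dim probes, 444 over genes measured on all 3 arrays, and 0 with the spread of all 6 scanner files (1541 at an unadjusted p under 0.05). Genes higher in fetal liver numbered 1265, but 622 with quantile normalization, 620 over genes measured on all 3 arrays, 1 with all 6 scanner files and 818 with all 6 columns of the value table. Leaving out a marrow knockout replicate gave 682 to 747 and 902 to 1108, from a fit on the other 5 columns of the value table in which the lone knockout arrays were assumed to vary like the wild-type marrow ones. The count of genes at least 2-fold higher on the marrow arrays was 1183, but 673 with normexp and 737 over genes measured on all 3 arrays, and 1528 to 1572 with a replicate left out. That of genes at least 2-fold lower was 1539, but 1000 over genes measured on all 3 arrays and 1948 to 2887 with a replicate left out, where 1 array rather than 2 had to pass.

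The genotype test called 1 gene, and 0 with all 6 scanner files, 200 without the array labelled BM_WT replicate 1, 0 with no filter, 268 with the slide as a replicate block, and 33 to 321 with a replicate left out. No paired analysis was possible for the tissue contrast because BM_KO and FL_KO share only the number 1 and lie on different slides.

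Among named genes, Cngb1 reversed to -0.46 over probes measured on all 3 arrays and Rrm2b to -0.11 with normexp. With BM_KO replicate 1 or 2 left out in turn, the difference of Mcpt8 ranged from -0.08 to 2.46, that of Mki67 from -0.05 to 1.3, the difference of Xist from -7.13 to 1.01 and that of Hspa1a from -7.04 to 0.01. Apart from the filters and the arrays left out, the cause was not tested. The dim fetal liver array limits the genes measured there.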

Other observations

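Genes of nuclear receptors, the p53 response and cholesterol synthesis also differed in single members. Of 21 nuclear receptor genes tested, 6 were called higher in knockout marrow and 1 in fetal liver, and of the 15 measured on all 3 arrays 2 and 0. Esr1, the estrogen receptor alpha gene, was at 1.16 and 0.83 in marrow and not well above background in fetal liver, at least 19.7-fold higher in marrow. Of 30 p53 target genes, 6 were called higher in marrow and 4 in fetal liver, and 3 and 2 with quantile normalization. Of 23 cholesterol synthesis genes, 0 were called higher in marrow and 4 in fetal liver. With quantile normalization or with no filter on dim probes, 0 were called either way. Of 13 germline genes tested, out of 42 listed, 2 were called higher in marrow and 6 in fetal liver, but 2 and 1 of the 7 measured on all 3 arrays, and 1 and 3 with quantile normalization. Of 29 homing and niche genes, 4 and 6 were called, and of 27 T, NK and innate lymphoid genes 7 and 6. With quantile normalization these became 2 and 4, and 6 and 2. Over all genes, 7.19% were called higher in marrow and 9.71% in fetal liver.

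Aldh1a1, a retinaldehyde dehydrogenase, was at 4.11 and 4.77 in marrow and -2.84 in fetal liver, 156-fold higher in marrow (limma adjusted p = 1.8e-14). Fxyd4, an ion pump regulator, was not well above background in knockout marrow and at 2.75 in knockout fetal liver, at least 149-fold higher there. Fxyd4 was not well above background in wild-type fetal liver or on wild-type marrow replicate 2 (limma adjusted p of the genotype test 0.018 with the block).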
